A study of Homo sapiens with 52 samples.

Results

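Wnt ligands, the Frizzled receptors and co-receptors that bind them, and the factors that let cells secrete them were followed as 36 genes chosen by gene symbol. They were 19 WNT ligands, 10 Frizzled receptors (FZD1 to FZD10), 5 co-receptors (LRP5, LRP6, ROR1, ROR2 and RYK) and 2 secretion factors (PORCN and WLS). All 36 had a row among the 62696 rows of the tumour line count table and among the 61209 rows of the THP-1 count table. RNA-seq counts came from 52 libraries of 3 human cell lines. Huh6 and HepG2, 2 hepatoblastoma lines, received for 48 h either the empty vehicle, PKF118-310, an inhibitor of Wnt signalling, or iMDK, an inhibitor of the growth factor midkine. PKF118-310 was given at 0.2, 0.3 and 0.4 uM in Huh6 and at 0.2 and 0.3 uM in HepG2, and iMDK at 5 and 10 uM in both. THP-1 is a monocytic leukaemia line, and all of its groups were first turned into macrophages by 48 h with 80 ng/ml phorbol 12-myristate 13-acetate and 48 h of rest. These macrophages were kept alone, or were given tumour cells for 24 h and then sorted. The added HepG2 or Huh6 cells were untreated or had received iMDK at 5 or 10 uM for 24 h beforehand. Each of the 18 groups had 3 libraries, except HepG2 at 0.3 uM PKF118-310, which had 1 and entered no comparison of groups. The labels do not say whether the 3 libraries of a group came from separate cultures, so n counts libraries and p-values measure the spread between libraries, which may be technical.

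Wnt proteins are lipid-modified by PORCN and carried to the cell surface by WLS. On a receiving cell, a Frizzled together with LRP5 or LRP6 stops the destruction of beta-catenin, which then turns on genes with TCF and LEF factors, whereas WNT5A-type ligands mostly act through ROR1, ROR2, RYK or Frizzled without beta-catenin. In the liver this pathway sets the pericentral programme, and most hepatoblastomas carry stabilised beta-catenin, which acts downstream of the ligands and receptors described here. PKF118-310 interferes with the binding of beta-catenin to TCF factors.

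Total counts were 18172462 to 19912509 in Huh6, 18284605 to 20043105 in HepG2 and 12623973 to 16940245 in THP-1, so that 3 counts, taken as the limit of detection, equal 0.151 to 0.165, 0.15 to 0.164 and 0.177 to 0.238 CPM, the count scaled to the size of its library. No pair of libraries was identical (0 of 465 pairs in the tumour line table and 0 of 210 in the THP-1 table). Of 20 hepatoblastoma markers, 19 reached 1 CPM in Huh6 vehicle and 20 in HepG2 vehicle. Of 15 macrophage markers, 13 reached 1 CPM in THP-1 cultured alone, while CD68, a defining one, was listed at 0 in all libraries of both tables. CPM are scaled within each line, so levels in different lines come from separate normalisations and are given side by side without a test unless stated.

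The stretch of DNA before the transcription start was read for the 27 genes with an entry in the RefSeq promoter table (GRCh38.p14). It is shown for 5 of the genes whose mRNA moved under the inhibitors and whose 250 bases before the start lie in no exon of GENCODE 29, with CpG dinucleotides in capitals. Other genes that met both conditions, such as RYK, ROR1, FZD8 and FZD9, are not shown. WNT5A lies on chromosome 3, WNT9A on chromosome 1, WNT6 and FZD5 on chromosome 2 and LRP5 on chromosome 11, and the WNT5A window lies within the longest annotated extent of its own gene.
WNT5A (chr3:55481399-55481648, minus strand): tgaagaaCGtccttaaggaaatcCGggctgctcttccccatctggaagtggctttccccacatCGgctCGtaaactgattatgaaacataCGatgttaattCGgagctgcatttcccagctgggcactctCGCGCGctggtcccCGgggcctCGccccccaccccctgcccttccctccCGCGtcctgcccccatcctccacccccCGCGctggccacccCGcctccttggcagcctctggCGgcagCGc
WNT6 (chr2:218859555-218859804, plus strand): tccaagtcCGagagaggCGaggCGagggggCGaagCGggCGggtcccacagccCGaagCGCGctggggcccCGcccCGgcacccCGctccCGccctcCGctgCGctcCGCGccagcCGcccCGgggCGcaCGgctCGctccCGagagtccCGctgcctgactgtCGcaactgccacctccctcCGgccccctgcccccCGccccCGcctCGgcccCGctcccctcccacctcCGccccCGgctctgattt
WNT9A (chr1:227947933-227948182, minus strand): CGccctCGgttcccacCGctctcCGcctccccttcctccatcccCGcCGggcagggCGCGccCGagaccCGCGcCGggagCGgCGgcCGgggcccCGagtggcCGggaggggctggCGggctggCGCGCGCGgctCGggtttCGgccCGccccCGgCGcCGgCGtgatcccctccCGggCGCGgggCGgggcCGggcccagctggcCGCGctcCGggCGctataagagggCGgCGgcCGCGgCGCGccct
FZD5 (chr2:207769907-207770156, minus strand): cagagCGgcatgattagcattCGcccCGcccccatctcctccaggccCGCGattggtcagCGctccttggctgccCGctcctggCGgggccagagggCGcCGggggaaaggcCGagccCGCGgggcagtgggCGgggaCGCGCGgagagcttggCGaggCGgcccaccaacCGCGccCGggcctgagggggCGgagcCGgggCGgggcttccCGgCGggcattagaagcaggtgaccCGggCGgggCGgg
LRP5 (chr11:68312341-68312590, plus strand): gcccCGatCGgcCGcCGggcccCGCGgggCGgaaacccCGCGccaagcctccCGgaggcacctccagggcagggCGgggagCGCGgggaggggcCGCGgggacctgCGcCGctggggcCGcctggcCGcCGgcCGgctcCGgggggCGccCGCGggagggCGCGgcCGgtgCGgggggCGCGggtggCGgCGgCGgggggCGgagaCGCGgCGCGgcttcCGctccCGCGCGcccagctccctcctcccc
These windows differed in CpG number from 18 for WNT5A to 44 for WNT9A, and in GC content from 64.4% for WNT5A to 87.2% for LRP5. The TCF/LEF core motif, searched as CTTTGA, was present in 1 of the 32 windows of the 27 genes (PORCN) and in 11.2% of all 35116 promoter windows of the same length. The aryl hydrocarbon receptor core, searched as GCGTG, was present in 13 of 32 and in 32.2% of all windows, and among the sequences shown it occurred in that of WNT9A. Windows not shown that held it included those of RYK, ROR1, FZD8 and FZD9. The AP-1 motif TGANTCA was in 0 of 32 (6.57% of all), and the antioxidant response core TGACNNNGC in 3 of 32 (10.9% of all). The AP-1 and antioxidant motifs can overlap each other, and all motifs were searched on both strands. A match describes letters only, and no match says only that the letters are not in the window.

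The lines differed first in which of the genes they expressed. A gene counted as expressed when its mean reached 1 CPM in at least 1 group of the line, as low when it passed edgeR's filter on low counts without reaching 1 CPM, and otherwise as not tested. Huh6 expressed 22 of the 36 genes, with 3 more low. HepG2 expressed 21, with 4 low, and THP-1 23, with 2 low. The THP-1 number includes the co-culture groups, whose libraries carried tumour RNA, and the ligands WNT3 and WNT5A reached 1 CPM only in those groups. Of the Frizzleds 8 were expressed in THP-1, and 7 reached 1 CPM in macrophages alone. Of the secretion factors these numbers were 2 and 1. With untreated Huh6, WNT3 stood at 1.92 CPM, of which the tumour reads, estimated below, predict 0.108. In each line 11 genes were not tested and 25 were, under a looser filter in HepG2, whose fit held a group of 1 library. In vehicle-treated Huh6, 22 genes reached 1 CPM, against 15 in vehicle-treated HepG2 and 19 in THP-1 alone, and 10 did so in all 3 lines. WNT2, WNT7A, WNT10A, WNT16 and FZD10 were not tested in any line, and WNT2 and FZD10 had 0 counts in all 13 HepG2 libraries, which allows up to 0.15 to 0.164 CPM per library.

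**Figure D1:**
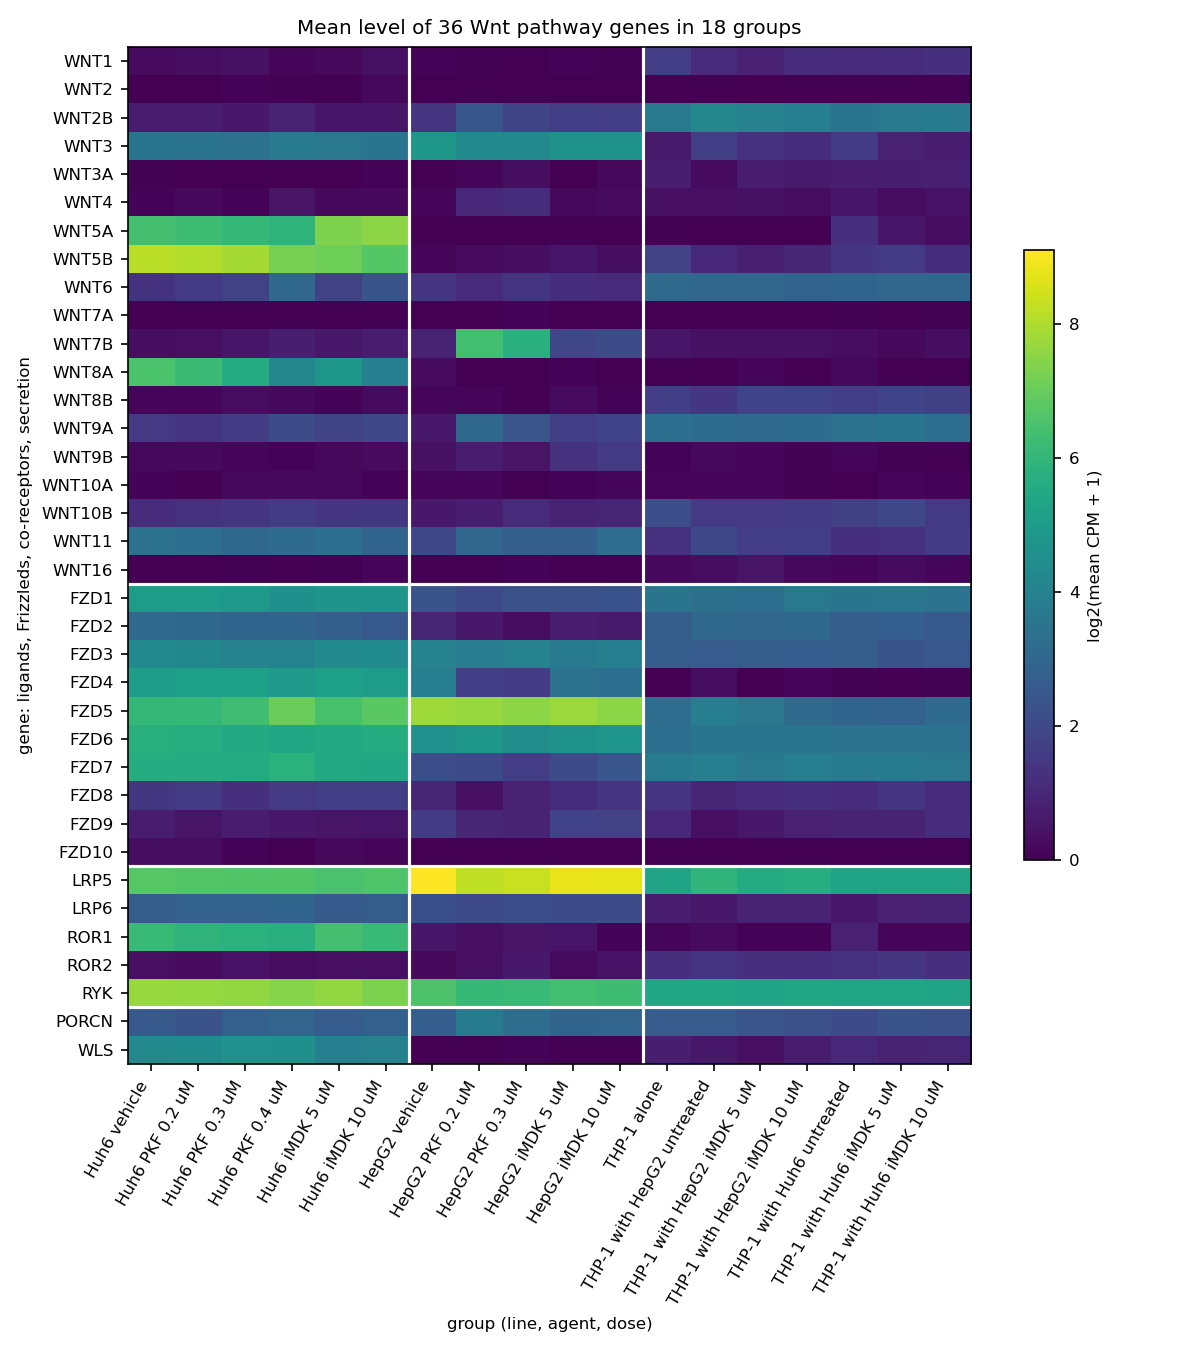
Mean level of the 36 genes (rows: ligands, Frizzled receptors, co-receptors and secretion factors, separated by white lines) in the 18 groups (columns, by line, agent and dose). Colour is log2(mean CPM + 1), and each line was scaled on its own. WNT5A, WNT5B and WNT8A are bright in Huh6 and dark in HepG2, and LRP5 is brightest in HepG2.

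Per length of exon, which allows genes to be compared, Huh6 vehicle cells made 3 ligand mRNAs in bulk. WNT5B, a ligand that mostly signals without beta-catenin, stood at 65.9 ± 1.95 CPM per kilobase of exon (RPKM, mean ± SD, n = 3) and supplied 50.9% of the summed ligand level. WNT8A, a ligand of early embryos that activates beta-catenin, followed at 43.4 ± 2.47 RPKM (33.5%), and WNT5A at 11.5 ± 0.441 RPKM (8.88%). HepG2 vehicle cells had a summed ligand level of 9.45 ± 1.34 RPKM, against 130 ± 1.14 in Huh6. WNT3, which activates beta-catenin, made up 66.4% of it at 6.26 ± 0.713 RPKM. WNT6 led in THP-1 alone at 4.62 ± 0.497 RPKM, ahead of WNT9A at 2.26 ± 0.305.

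The receptors were ordered differently as well. In Huh6 vehicle, FZD6 (13.0 ± 0.274 RPKM) and FZD7 (12.8 ± 0.252) did not differ beyond their spread, and FZD5 followed at 9.76 ± 0.276. In HepG2 vehicle FZD5 alone supplied 73.3% of the Frizzled level (32.5 ± 1.24 RPKM), and the co-receptor LRP5 stood at 89.3 ± 3.02 RPKM. RYK, a receptor-like protein that binds Wnt, led the co-receptors of Huh6 at 25.8 ± 0.129 RPKM, before LRP5 at 17.2 ± 0.0801 and ROR1 at 10.6 ± 0.272. In THP-1 alone, FZD7 was the highest Frizzled at 3.27 ± 0.467 RPKM, and its range of 1 SD overlapped that of FZD2 at 2.59 ± 0.373, and LRP5 and RYK stood at 6.29 ± 0.413 and 5.15 ± 0.378 RPKM.

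A test on the 6 vehicle libraries scaled together set the 2 tumour lines against each other. Of 25 genes tested, 6 were higher and 17 lower in HepG2, against 40.4% and 42.6% of all genes tested (83% in all) at an adjusted p under 0.05, so that a difference was the rule for any gene. LRP5 was higher in HepG2 (536 against 106 CPM, log2 fold change 2.34 ± 0.03, adjusted p = 1.39e-31), as were FZD5 (1.70 ± 0.04), FZD9 (1.74 ± 0.31), WNT7B (1.65 ± 0.44), WNT2B (1.40 ± 0.37) and WNT3 (1.32 ± 0.09). WNT5A had no count in the HepG2 vehicle libraries, against 85.2 CPM in Huh6. WNT5B stood at 0.0856 against 284 CPM, WNT8A at 0.195 against 90.8, ROR1, the receptor of WNT5A, at 0.446 against 71.5, and WLS, the carrier that brings Wnt to the surface, at 0.0171 against 18.6. The HepG2 values of WNT5A, WNT5B and WLS lay under the level of 3 counts, so no fold change is given. FZD7 (-3.90 ± 0.09), FZD2 (-3.05 ± 0.22) and FZD1 (-2.93 ± 0.10) were lower too, and WNT6 (0.08 ± 0.32) and PORCN (0.18 ± 0.16) were not called. The calls of FZD8 (-0.88 ± 0.33) and LRP6 (-0.63 ± 0.20) ended when 1 vehicle library was left out.

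**Figure D2:**
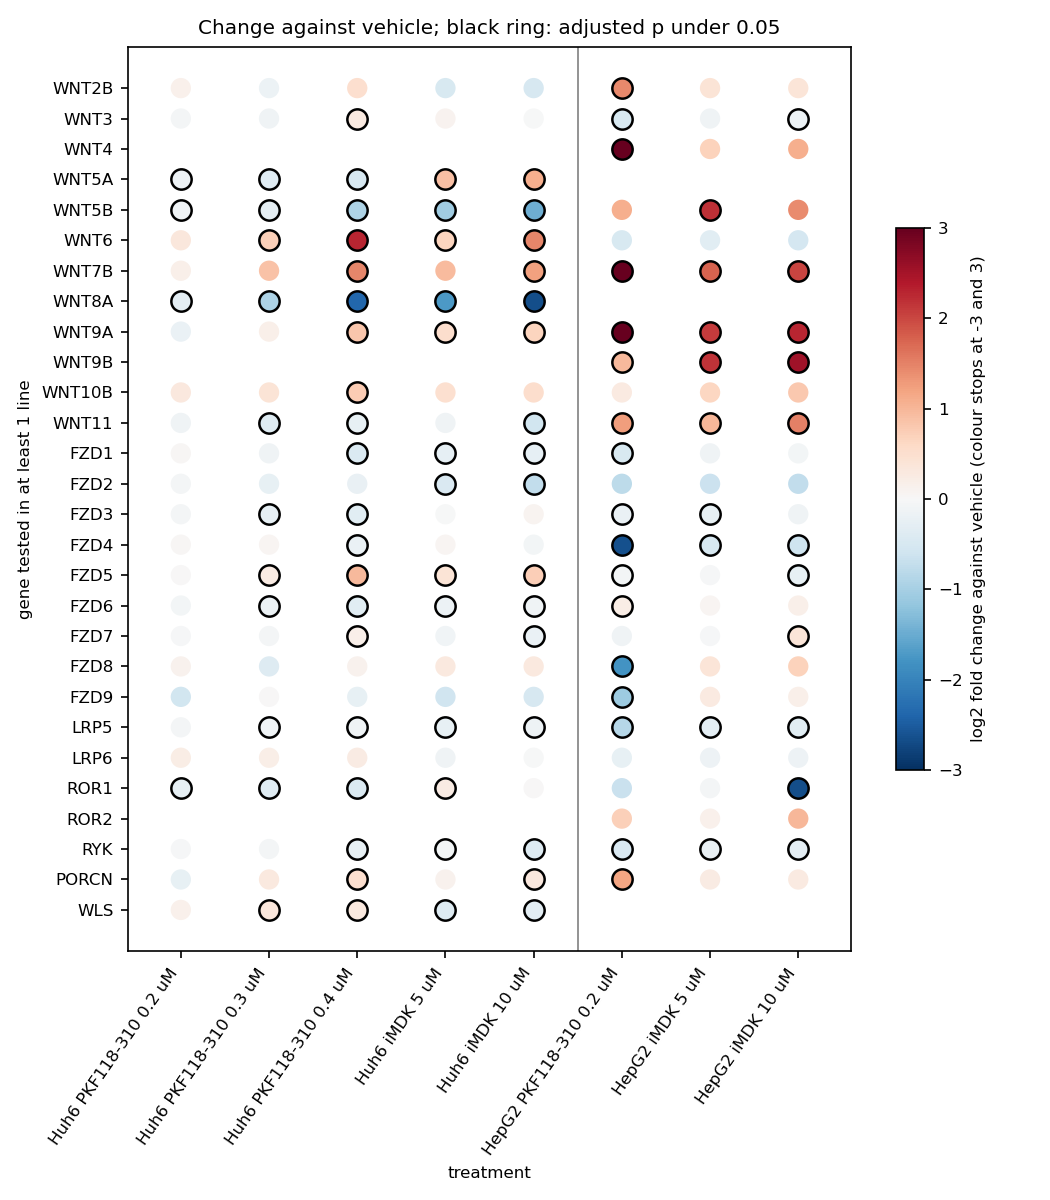
Log2 fold change against vehicle (colour, which stops at -3 and 3) for the 28 genes tested in at least 1 tumour line (rows) under 8 treatments (columns). A black ring marks an adjusted p under 0.05, and an empty place a gene not tested in that line. WNT8A and WNT5B are blue under the higher doses in Huh6, and 4 to 6 of 10 ligands are ringed in red in each HepG2 column. In these columns 23.2 to 34.3% of all genes tested were called higher.

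In Huh6, both inhibitors lowered WNT8A and WNT5B, and WNT8A fell the most. Its mRNA stood at 89.7, 86.1 and 96.3 CPM in the vehicle libraries. It stood at 74.5, 68.1 and 78.1 CPM with 0.2 uM PKF118-310, at 48.5, 49.4 and 46.3 with 0.3 uM, and at 17.7, 16.8 and 17.5 with 0.4 uM. With iMDK it stood at 27.1, 25.4 and 30.2 CPM at 5 uM and at 14.9, 13.8 and 14.3 at 10 uM. Every treated library was below every vehicle library, and the doses of each agent did not overlap. The log2 fold change was -0.30 ± 0.05 at 0.2 uM (adjusted p = 8.01e-05), -0.92 ± 0.05 at 0.3 uM, -2.39 ± 0.06 at 0.4 uM (1.16e-31), -1.72 ± 0.06 at 5 uM iMDK and -2.66 ± 0.06 at 10 uM (7.51e-33). WNT8A lies on chromosome 5 (138083892 to 138092365, plus strand, GRCh38).

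WNT5A and WNT5B, close paralogues that share their receptors, parted under iMDK. WNT5B stood at 287, 291 and 274 CPM in vehicle, at 150, 145 and 152 with 0.4 uM PKF118-310, and at 109, 101 and 97.3 with 10 uM iMDK. WNT5A stood at 85.7, 81.7 and 88.1 CPM in vehicle, at 58.8, 59.1 and 62.5 with 0.4 uM PKF118-310, and at 176, 179 and 188 with 10 uM iMDK. Thus WNT5B was lower than in any vehicle library under both agents, while WNT5A was lower under PKF118-310 and higher under iMDK, with no overlap. The changes at these doses were -0.93 ± 0.03 (adjusted p = 4.65e-27) and -1.47 ± 0.03 (1.38e-33) for WNT5B, and -0.50 ± 0.04 (2.72e-13) and 1.09 ± 0.04 (3.03e-26) for WNT5A. At 5 uM iMDK, WNT5A already stood at 159, 160 and 161 CPM (0.91 ± 0.04), and 10 uM exceeded 5 uM by 0.18 ± 0.04 (0.000175). Reads that fit both paralogues could be split by the counting, a limit for both genes.

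The ligand make-up of Huh6 shifted. Summed over 19 ligands, the level per length fell from 130 ± 1.14 RPKM in vehicle to 63.9 ± 1.10 with 0.4 uM PKF118-310 and to 64.9 ± 0.929 with 10 uM iMDK. WNT5B kept 54.1% of that sum under PKF118-310, whereas under 10 uM iMDK WNT5A (37.7%) and WNT5B (36.7%) were alike within their spread, and WNT8A dropped to 10.6%. The summed Frizzled level was 50.3 ± 0.855 RPKM in vehicle, 56.3 ± 0.601 with 0.4 uM PKF118-310 and 51.7 ± 0.226 with 10 uM iMDK. These sums carry no test.

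Minor ligands of Huh6 rose. WNT6 stood at 1.8, 0.868 and 1.81 CPM in vehicle, at 7.79, 7.71 and 6.6 with 0.4 uM PKF118-310, and at 4.12, 3.37 and 5 with 10 uM iMDK. Both treated groups lay above vehicle, by 2.29 ± 0.20 (adjusted p = 1.46e-13) and 1.47 ± 0.21 (1.24e-07). WNT9A, a ligand of the beta-catenin branch, rose by 0.84 ± 0.21 and 0.67 ± 0.21. WNT7B was called at the same doses but stayed low, at 1.00, 0.479 and 0.634 CPM with 0.4 uM PKF118-310 against 0.2, 0.408 and 0.151 in vehicle. Both calls ended without vehicle replicate 3 or without replicate 1 of the treated group, and at 10 uM iMDK the libraries overlapped with vehicle. In all, the call at 10 uM iMDK ended in 6 of 11 other settings. WNT7B passed the filter on low counts in Huh6 only through treated libraries, so its entry was not independent of these differences. WNT11 fell at 10 uM iMDK (-0.57 ± 0.10), and its call at 0.4 uM PKF118-310 (-0.26 ± 0.10) ended in 6 of 12 other settings.

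**Figure D3:**
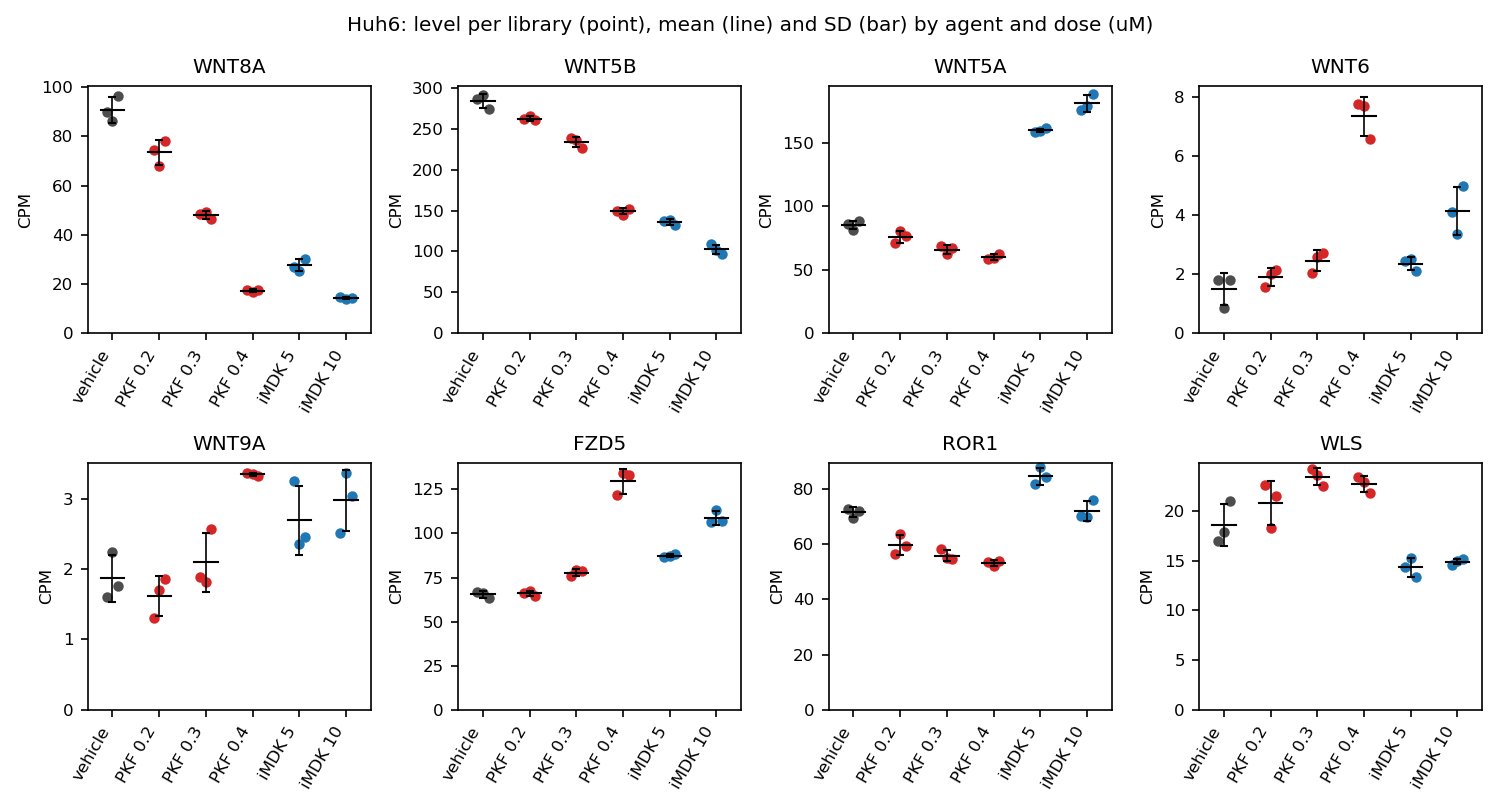
CPM of 8 genes in each of the 18 Huh6 libraries (points), with the mean (line) and SD (bar) of each group of 3, by agent and dose in uM. WNT8A and WNT5B step down with dose under both agents, WNT5A goes down under PKF118-310 and up under iMDK, and FZD5 goes up under both.

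Among the receptors of Huh6, FZD5, a Frizzled that works with LRP5 and LRP6, rose under both agents. It stood at 67, 66.1 and 63.4 CPM in vehicle, at 75.7, 79.2 and 78.5 with 0.3 uM PKF118-310, at 122, 134 and 133 with 0.4 uM, and at 106, 113 and 107 with 10 uM iMDK. At 0.2 uM PKF118-310 it stood at 66.4, 67.2 and 64.6 CPM, overlapping the vehicle libraries. The change was 0.98 ± 0.04 at 0.4 uM (adjusted p = 8.56e-25), 0.42 ± 0.04 at 5 uM iMDK and 0.73 ± 0.04 at 10 uM (5.83e-20). FZD1 (-0.44 ± 0.07), FZD6 (-0.33 ± 0.05) and FZD3 (-0.33 ± 0.09) fell at 0.4 uM PKF118-310, and FZD1 (-0.28 ± 0.07) and FZD2 (-0.73 ± 0.13) fell at 10 uM iMDK. FZD7 rose under the former (0.18 ± 0.05), a call that ended without scaling factors, and fell under the latter (-0.20 ± 0.05).

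ROR1, the WNT5A receptor, moved in opposite directions under the agents. Its CPM were 72.9, 69.4 and 72.1 in vehicle, 53.5, 52.1 and 54 with 0.4 uM PKF118-310, and 81.8, 87.8 and 84.1 with 5 uM iMDK. The first group lay below and the second above vehicle, by -0.43 ± 0.05 (adjusted p = 1.02e-10) and 0.24 ± 0.04 (1.34e-05). At 10 uM iMDK it overlapped the vehicle libraries (70, 69.8 and 76 CPM, 0.01 ± 0.04). WLS rose with 0.4 uM PKF118-310 (0.29 ± 0.08, adjusted p = 0.00203) and fell with 5 uM (-0.38 ± 0.08) and 10 uM iMDK (-0.32 ± 0.08, 0.00135). RYK fell at the highest doses (-0.25 ± 0.03 and -0.39 ± 0.03), and LRP5 by less (-0.12 ± 0.04, a call that ended without 0.4 uM replicate 1, and -0.16 ± 0.04). LRP6 was not called at any dose in Huh6.

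By number, 0 of 25 genes rose and 4 fell at 0.2 uM PKF118-310, where 2.24% of all genes tested were called (1.04% higher, 1.2% lower). The 4 were WNT8A, ROR1 (-0.26 ± 0.05, adjusted p = 0.000215), WNT5A (-0.16 ± 0.04, 0.0235) and WNT5B (-0.11 ± 0.03, 0.0313), and the calls of WNT5A and WNT5B ended when single libraries were left out. At 0.3 uM, 3 rose and 8 fell (28.5% of all genes called, 15% higher and 13.5% lower), and at 0.4 uM 9 rose and 11 fell (56.8%, 28.9% higher and 27.9% lower). Over all genes called, the share that rose was 52.7% at 0.3 uM and 50.9% at 0.4 uM, and 41.3% and 39.4% with library totals in place of scaling factors. With iMDK, 5 rose and 8 fell at 5 uM (35.6% of all genes, 17.3% higher and 18.3% lower), and 6 rose and 10 fell at 10 uM (52.1%, 26% higher and 26.1% lower). Between doses, 7 were higher and 9 lower at 0.4 than at 0.2 uM PKF118-310 (54.6% of all genes called, 28.1% higher and 26.5% lower). Of the genes called there, 51.5% were higher, or 40.1% with library totals. At 10 against 5 uM iMDK, 3 were higher and 5 lower (24.9%, 12.7% higher and 12.2% lower). The median change of the 10 ligands tested was 0.39 at 0.4 uM PKF118-310 and 0.26 at 10 uM iMDK, of the 9 Frizzleds -0.22 and -0.12, while that of all genes lay within 0.01 of 0.

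In HepG2, 0.2 uM PKF118-310 raised ligands that were minor in vehicle cells, and WNT7B moved from a minor to the leading ligand. WNT7B, which activates beta-catenin in lung and brain vessels, stood at 0.795, 0.785 and 0.91 CPM in vehicle and at 81.2, 80.8 and 79.1 CPM with 0.2 uM. The groups did not overlap, and the change was 6.59 ± 0.11 (adjusted p = 5.95e-37). Per length it reached 15.9 ± 0.212 RPKM, or 58.7% of the summed ligand level, which went from 9.45 ± 1.34 to 27.1 ± 0.311 RPKM. WNT7B lies on chromosome 22 (45920362 to 45977129, minus strand).

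Further ligands rose with it. WNT9A stood at 0.742, 0.366 and 0.455 CPM in vehicle and at 7.04, 7.89 and 7.17 with 0.2 uM PKF118-310 (3.80 ± 0.24, adjusted p = 1.78e-17). WNT11, which acts in planar polarity, stood at 2.12, 3.77 and 2.9 against 8, 6.49 and 6.68 CPM (1.26 ± 0.17, 3.57e-08), and WNT2B at 1.7, 1.57 and 1.71 against 4.53, 4.17 and 4.73 CPM (1.43 ± 0.23, 6.12e-07). In all 3 genes each treated library exceeded each vehicle library. WNT4 had 60 counts in the 3 treated libraries against 5 in the vehicle libraries, a ratio of 11.8 (95% interval 4.77 to 37.5, which, like the later intervals of count ratios, covers counting error only). WNT9B was called at 0.98 ± 0.44 (0.0451), a call that ended in 7 of 13 other settings. In vehicle WNT4 stood at 0.053 to 0.114 CPM and WNT9B at 0.209 to 0.398. Both passed the filter on low counts only through treated libraries. Their entry among the genes tested was therefore not independent of these differences. WNT3, the leading ligand of vehicle cells, fell from 23.6, 29.5 and 28.2 to 19.3, 19 and 20.1 CPM (-0.48 ± 0.07, 3.72e-07). PORCN, the enzyme that lipidates Wnt, rose from 5.56, 4.87 and 6.37 to 12.8, 13.3 and 11.9 CPM (1.18 ± 0.11, 6.24e-12), while WLS had no count in these 3 libraries.

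**Figure D4:**
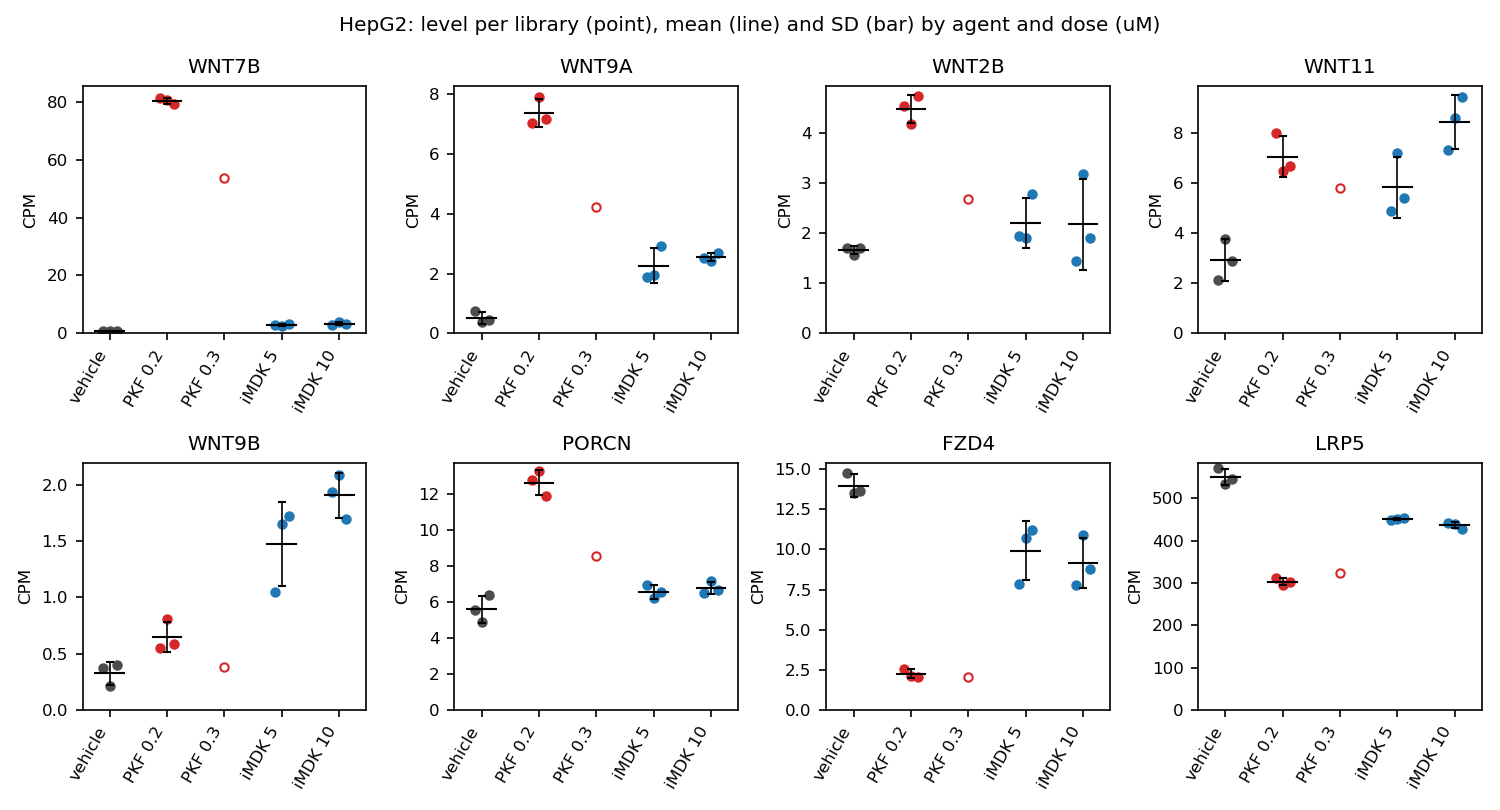
CPM of 8 genes in each of the 13 HepG2 libraries (points; the open point is the single library at 0.3 uM), with the mean (line) and SD (bar) of each group of 3, by agent and dose in uM. WNT7B, WNT9A and PORCN are highest and FZD4 and LRP5 lowest in the PKF118-310 libraries. WNT9B is highest with iMDK, and the highest WNT11 library is at 10 uM iMDK.

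Of the 14 receptors and co-receptors tested in HepG2, 8 were lower at 0.2 uM PKF118-310, 1 was higher (FZD6) and 5 were not called. Of all genes tested 67.7% were called there, 33.4% lower and 34.3% higher. FZD4, which also binds norrin, stood at 14.8, 13.5 and 13.6 CPM in vehicle and at 2.57, 2.11 and 2.05 with the inhibitor, with no overlap (-2.64 ± 0.15, adjusted p = 1.22e-18). The exons of PRSS23 on the opposite strand cover 18.95% of those of FZD4, and the strand setting of the counting is not given in the sources used here. PRSS23 went up in these libraries, from 1.2 ± 0.265 to 7.02 ± 0.849 CPM. LRP5 stood at 571, 534 and 545 CPM in vehicle and at 312, 295 and 302 with the inhibitor (-0.86 ± 0.03, 2.82e-25), and RYK fell as well (-0.46 ± 0.04). FZD8 (-1.79 ± 0.42) and FZD9 (-1.09 ± 0.26) fell from about 1 and 2 CPM, and FZD6 rose by 0.23 ± 0.08. The calls of FZD1 (-0.47 ± 0.18), FZD3 (-0.20 ± 0.09), FZD6 and FZD5 (-0.09 ± 0.04) each ended in some other settings. Those of FZD1, FZD3 and FZD5 ended with library totals in place of scaling factors, where FZD5 changed by -0.01. LRP6, ROR1, ROR2, FZD2 and FZD7 were not called.

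In these HepG2 libraries 8 of 25 genes rose and 9 fell, where 67.7% of all genes tested were called (34.3% higher, 33.4% lower). With library totals 8 rose and 6 fell, and the share of all called genes that rose went from 50.6% to 57.3%. The median change was 1.18 over 10 ligands, -0.47 over 9 Frizzleds and 0.01 over all genes. The summed level of 20 hepatoblastoma markers, all at 1 CPM or more in both groups, was 35567 to 38471 CPM in vehicle and 12184 to 13106 CPM with the inhibitor. That of 15 macrophage markers, of which 5 reached 1 CPM in each group and CD68 was at 0, was 1138 to 1272 and 251 to 289 CPM. The part of these marker shifts in the changes of the Wnt genes was not tested. The single library at 0.3 uM held 53.7 CPM of WNT7B, 4.22 of WNT9A, 2.03 of FZD4 and 323 of LRP5, each on the treated side of all vehicle libraries.

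iMDK also raised ligands in HepG2, by less for WNT7B and by more for WNT9B. WNT9B stood at 0.371, 0.209 and 0.398 CPM in vehicle, 1.04, 1.65 and 1.72 with 5 uM and 1.94, 2.09 and 1.7 with 10 uM. Its 115 counts at 10 uM against 18 in vehicle gave a ratio of 6.19 (95% interval 3.75 to 10.8), and the fitted changes were 2.16 ± 0.38 and 2.53 ± 0.37 (adjusted p = 8.03e-06 and 1.58e-07). WNT11 rose by 0.99 ± 0.18 and 1.52 ± 0.17, WNT9A by 2.10 ± 0.29 and 2.28 ± 0.28, and WNT7B by 1.77 ± 0.20 and 2.02 ± 0.20, to 2.98, 3.77 and 3.39 CPM at 10 uM. Treated and vehicle libraries did not overlap for any of these 4. WNT5B was called at 5 uM only, on 26 counts against 5 (ratio 5.04, 95% interval 1.90 to 16.8), and that call ended without vehicle replicate 2 or 3.

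LRP5 fell with iMDK to 448, 451 and 454 CPM at 5 uM and 441, 439 and 428 CPM at 10 uM (-0.29 ± 0.03 and -0.34 ± 0.03, adjusted p = 2.26e-10 and 2.67e-12). FZD4 fell to 7.86, 10.7 and 11.2 CPM and to 7.8, 10.9 and 8.77 CPM (-0.49 ± 0.12 and -0.61 ± 0.12), with PRSS23 at 12.2 ± 1.53 CPM at 10 uM. RYK fell (-0.22 ± 0.04 and -0.30 ± 0.04), and FZD5 fell at 10 uM (-0.25 ± 0.04). ROR1, low in this line, had 4 counts at 10 uM against 25 in vehicle (ratio 0.155, 95% interval 0.039 to 0.449). In number, 5 genes rose and 4 fell at 5 uM (47.3% of all genes tested were called, 23.2% higher and 24.1% lower). Of the genes called, 49.1% rose, or 59.6% with library totals, where 6 of the Wnt genes rose and 3 fell. At 10 uM 5 rose and 6 fell (54.6%, 27.3% higher and 27.2% lower), and with library totals 8 rose and 5 fell, while the share of all called genes that rose went from 50.1% to 59.3%. At this dose the calls of WNT3 (-0.18 ± 0.07) and FZD7 (0.39 ± 0.17) ended in 7 of 13 other settings each. Between the doses 1 was higher and 2 lower at 10 uM (13.4% of all genes, 6.5% higher and 6.94% lower), namely WNT11 (0.53 ± 0.15) and FZD5 (-0.21 ± 0.04) with ROR1. WNT11 lost its call without 5 uM replicate 1 or 10 uM replicate 3, and ROR1 without 5 uM replicate 2 or 10 uM replicate 1 or 3.

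Whether the lines responded differently was tested as the difference of their log2 fold changes (HepG2 minus Huh6) at the doses both received. At 0.2 uM PKF118-310, 13 of 27 genes differed, 6 in the positive and 7 in the negative direction (56.3% of all genes tested, 28.3% positive and 28.1% negative). The response of WNT7B was 6.41 ± 0.65 larger in HepG2 (adjusted p = 1.01e-11), that of WNT9A 4.01 ± 0.36, that of PORCN 1.42 ± 0.20 and that of WNT11 1.40 ± 0.20. The response differed by -2.67 ± 0.15 for FZD4, -1.93 ± 0.53 for FZD8 and -0.79 ± 0.05 for LRP5. Against vehicle, 0.2 uM called 2.24% of all genes in Huh6 and 67.7% in HepG2. In Huh6 at 0.4 uM PORCN rose as well (0.50, a call that ended in 0 of 12 other settings). WNT9A (0.84) and WNT7B (1.46, ended in 2 of 11) also rose there, LRP5 (-0.12) and FZD4 (-0.19) fell, and WNT11 fell too (-0.26), opposite to HepG2. With 5 uM iMDK 7 of 26 differed, 5 in the positive and 2 in the negative direction (32.6%, 15.6% and 17% of all genes), and with 10 uM 12 of 26, 7 and 5 (41.7%, 21% and 20.7%). WNT11 rose in HepG2 and fell in Huh6 at 10 uM (difference 2.13 ± 0.21, 2.17e-12), and FZD5 did the reverse (-0.94 ± 0.05, 2.25e-20). WNT9A responded more in HepG2 at both iMDK doses (1.60 ± 0.41 and 1.65 ± 0.39). WNT5A, which rose in Huh6 under iMDK, had no count in any iMDK-treated HepG2 library.

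Other genes of the pathway were counted by lists. The shares of all genes called, against which these counts are read, were 56.8% in Huh6 at 0.4 uM PKF118-310 and 52.1% at 10 uM iMDK, and 67.7% in HepG2 at 0.2 uM PKF118-310 and 54.6% at 10 uM iMDK. Of the beta-catenin feedback targets, 9 of 11 were tested in each line. In Huh6 1 rose and 8 fell at 0.4 uM PKF118-310 (median -0.345), as at 10 uM iMDK (median -0.41), and in HepG2 1 rose and 6 fell at 0.2 uM PKF118-310 (median -0.65) and 8 fell at 10 uM iMDK (median -0.57). The 1 gene that rose, named after its values were seen, was AXIN2, which helps to assemble the beta-catenin destruction complex, under PKF118-310 (0.11 ± 0.03 in Huh6, 0.35 ± 0.04 in HepG2), and LGR5, an R-spondin receptor, with 10 uM iMDK in Huh6 (0.18 ± 0.06). Of the secreted and surface antagonists, 3 rose and 6 fell of 9 tested in Huh6 at 0.4 uM PKF118-310, with DKK4 (-1.44) and DKK1 (-0.97), which bind LRP5 and LRP6, and FRZB (0.88), which binds Wnt. In HepG2 2 rose and 3 fell of 8 at 0.2 uM, with TRABD2A (3.66), which cleaves Wnt, DKK3 (2.40), KREMEN1 (-1.28) and NOTUM (-1.14), which removes the Wnt lipid. The receptor LGR4 of the R-spondins fell in HepG2 with 0.2 uM PKF118-310 (-1.13 ± 0.04) and in Huh6 with 0.4 uM (-0.36 ± 0.05). Of the 14 genes of Dishevelled and the destruction complex, 9 rose and 4 fell in Huh6 at 0.4 uM and 7 rose and 5 fell in HepG2 at 0.2 uM, with FRAT1 at -1.09 and -1.70. Among 10 tested other Wnt receptors and co-factors, 1 rose and 5 fell in Huh6 at 0.4 uM, and 1 rose and 6 fell in HepG2 at 0.2 uM, including LRP4 (-0.66 and -1.96) and GPC3 (-0.66 and -1.54). Of the planar polarity core, 3 of 8 rose and 2 fell in Huh6 and 1 of 7 rose and 4 fell in HepG2.

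In THP-1 macrophages the question was whether contact with tumour cells changed the Wnt genes. With untreated HepG2, 4 of 25 genes were higher and 1 lower than in macrophages alone (21.6% of all genes tested were called, 12% higher and 9.68% lower). LRP5 stood at 40.9, 36 and 39.4 CPM alone and at 56.1, 56.8 and 68.4 with HepG2 (0.64 ± 0.14, adjusted p = 0.00238). FZD5 stood at 7.86, 9.57 and 8.26 against 10.8, 12.6 and 17.8 CPM (0.68 ± 0.19, 0.0131), and WNT3 at 0.811, 0.18 and 0.789 against 1.89, 2.79 and 2.1 CPM (1.92 ± 0.57, 0.0183). The groups did not overlap in any of the 3, and HepG2 itself expresses each of them. The calls of FZD5 and WNT3 each ended when either of 2 libraries was left out. In bulk RNA, more tumour cells in the sort and more of an mRNA per macrophage cannot be told apart.

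The sorted libraries carried tumour RNA. The summed hepatoblastoma markers were 58.6 to 71 CPM in THP-1 alone, with AFP, APOB, DLK1, FGB, KRT19, PEG10 and TTR at 0, and 2792 to 3381 CPM with HepG2, where all 20 reached 1 CPM. From the median over 18 of these markers the share of HepG2 reads was estimated at 6.23 to 8.74%, while single markers gave 0.857 to 18.3%. The median predicts 39.7 of the 60.5 CPM measured for LRP5, 15.7 of 13.7 for FZD5 and 1.96 of 2.28 for WNT3 (CPM without scaling factors), for FZD5 more than was measured. Values after subtraction rest on that median. With the predicted tumour counts taken out of each library, the difference to macrophages alone turned to -0.74 for LRP5 (adjusted p = 0.0193), -4.37 for FZD5 (0.000305) and -0.64 for WNT3 (0.696). WNT11 stood at 1.12, 1.8 and 1.52 CPM alone and 3.19, 2.29 and 3.26 with HepG2 (0.97 ± 0.28, 0.0137). The tumour reads predict 0.211 CPM of it, and it kept its call after subtraction (1.02, 0.019), but not without replicate 1 of either group (adjusted p up to 0.0711). FZD9 was lower (-1.65 ± 0.54, 0.0326), a call that ended when any of 4 libraries was left out.

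**Figure D5:**
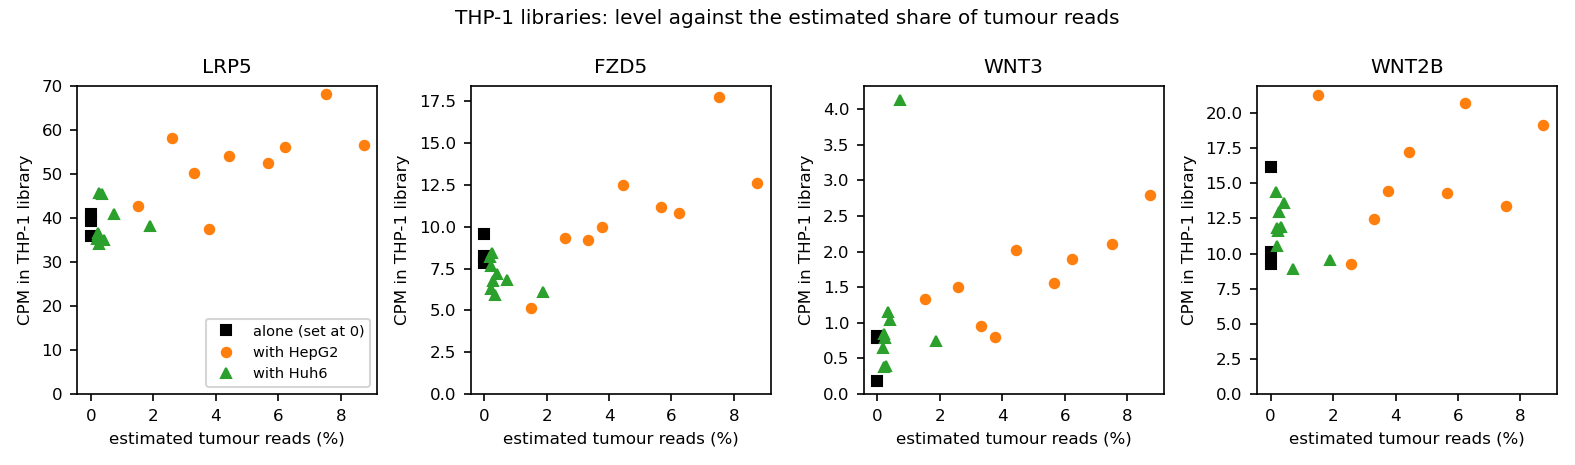
CPM of LRP5, FZD5, WNT3 and WNT2B in the 21 THP-1 libraries against the estimated percentage of tumour reads, set at 0 for macrophages alone (squares; circles with HepG2, triangles with Huh6, treated and untreated together). The libraries with untreated HepG2, which hold the most tumour reads (6.23 to 8.74%), reach 68.4 CPM of LRP5 and 17.8 of FZD5, while the highest WNT2B (21.3 CPM) is in a library with HepG2 given 10 uM iMDK and the highest WNT3 (4.12 CPM) in 1 with untreated Huh6.

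With untreated Huh6, only 1 of 25 genes was called (1.83% of all genes tested, 1.32% higher and 0.503% lower). WNT5A stood at 0, 0.0598 and 0.0607 CPM alone and at 2.66, 0.737 and 0.62 with Huh6, or 62 counts against 2, of which 43 were in replicate 1. The ratio was 34.0 (95% interval 9.03 to 287). The call (adjusted p = 0.0252) ended without Huh6 co-culture replicate 1 and without any library of macrophages alone (up to 0.168). With so few counts alone and none with HepG2, WNT5A passed the filter on low counts only through libraries with Huh6. Its entry among the genes tested was therefore not independent of this difference. Huh6 reads were estimated at 0.418 to 1.89% of these libraries, hepatoblastoma markers summed to 181 to 557 CPM, and the predicted tumour level of WNT5A was 0.871 of the 1.35 CPM measured. Set against co-culture with Huh6, co-culture with HepG2 had 4 genes higher and 1 lower (16.7% of all genes, 9.13% higher and 7.55% lower). These were FZD5 (1.03 ± 0.20), LRP5 (0.67 ± 0.14), WNT11 (1.12 ± 0.28) and WNT2B (0.74 ± 0.25, adjusted p = 0.0479), and WNT5A, which had no count with HepG2 against 1.34 CPM with Huh6. After subtraction FZD5 turned to -3.88 and LRP5 to -0.69, while WNT11 (1.28) and WNT2B (0.87) stayed higher. WNT2B, at 20.7, 19.1 and 13.4 CPM with HepG2 and 9.51, 8.91 and 13.6 with Huh6, overlapped between the groups, and its call ended in 5 of 13 other settings. The exons of ST7L on the opposite strand cover 21.2% of those of WNT2B.

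When the added tumour cells had received iMDK, few genes of any kind were called in the sorted THP-1 libraries, among them few Wnt genes. With HepG2 given 5 uM, edgeR called 0 of 25 genes (0.0903% of all genes tested, 0.0194% higher and 0.071% lower), 2 had an unadjusted p under 0.05 (WNT3A and LRP5), and DESeq2 called 0. In this comparison the libraries of the same number deviated together, and with the replicate as a block 614 genes were called in place of 14, with 0 of the Wnt genes among them. With HepG2 given 10 uM only FZD5 was called (3.34% of all genes, 0.645% higher and 2.7% lower), at 9.32, 5.17 and 9.21 CPM against 10.8, 12.6 and 17.8 (-0.80 ± 0.19, adjusted p = 0.0231). The HepG2 reads fell in parallel, from a median of 7.52% to 4.44% at 5 uM and 2.59% at 10 uM. After subtraction FZD5 turned to 3.02, and its call ended in a fit on the groups compared alone. With Huh6 given 5 or 10 uM, 0 of 25 genes were called at either dose (0.0129% and 0.0581% of all genes, of which 0.00645% higher at each dose and 0.00645% and 0.0516% lower), 3 and 2 had an unadjusted p under 0.05, and DESeq2 called 0 at both.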

How the data were processed

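RNA-seq was available as 2 deposited tables of raw gene counts, 31 tumour line libraries and 21 THP-1 libraries. Per the submitters' processing notes, the authors used STAR 2.7.3a, SAMtools 1.16.1, featureCounts, edgeR 3.36 and GRCh38. Per the labels' protocols, libraries were directional and poly(A) selected. The strand setting of the counting is not given in the sources used here. Groups came from the labels. The genes and lists were chosen with earlier results of these data known. All 36 genes may be named, with up to 4 called genes of each other list, those with the largest absolute log2 fold change.

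Each line was fitted across all genes with edgeR 4.0.16 in R 4.3.3 (limma 3.58.1), using filterByExpr, TMM scaling and the quasi-likelihood F test with Benjamini-Hochberg adjustment at 0.05. This left 15029 genes in Huh6, 15451 in HepG2 and 15500 in THP-1. The HepG2 fit included the single library at 0.3 uM PKF118-310, so its filter asked for fewer libraries than in the other lines. Without that library, 37 called values of the Wnt genes were still tested, all 37 kept their call, and 1 more was called. Other called values had no test without it. They were WNT5B at 5 uM iMDK, and ROR1 at 10 uM iMDK against vehicle and against 5 uM. The comparisons between tumour lines had fits of their own, in which CPM differ slightly. Values after ± are SD for levels and, for log2 fold changes, the standard error, taken as the absolute log2 fold change divided by the square root of F. RPKM divide CPM by the GENCODE 29 exon union. Comparisons with the same control share its libraries. Tumour reads in THP-1 were estimated from hepatoblastoma markers at 100 CPM or more in the tumour cells. The fits were tested on simulated data. Alternatives were other scaling, no filter, DESeq2 1.42.0, a replicate block, the compared groups alone, subtraction of tumour reads, and leaving out each library. Replicate numbers were taken to pair libraries only for THP-1 with HepG2 given 5 uM iMDK against untreated, where same-numbered libraries deviated together (correlations 0.143 to 0.386).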

Additional observations from a re-analysis of the deposited data

Results flagged for a closer look

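The response to an inhibitor differed between the tumour lines, by the test of the difference itself, in 32 cases, each given as the log2 fold change in HepG2 minus that in Huh6. At 0.2 uM PKF118-310, 6 of 27 genes differed upward and 7 downward, where 56.3% of all genes differed. At 5 uM iMDK 5 and 2 of 26 did so (32.6% of all genes), and at 10 uM 7 and 5 of 26 (41.7%). At 0.2 uM PKF118-310 the ligands differed by 6.41 (WNT7B), 4.01 (WNT9A), 1.40 (WNT11), 1.27 (WNT2B), -0.42 (WNT3) and -4.68 (WNT8A). The value of WNT8A is no bound, since HepG2 held 11 counts of it in vehicle and 0 with the inhibitor. The receptors differed by -2.67 (FZD4), -1.93 (FZD8), -0.50 (FZD1), 0.31 (FZD6), -0.79 (LRP5) and -0.41 (RYK), and PORCN by 1.42. The differences of WNT2B and FZD1 were no longer called when single libraries were left out.

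At 5 uM iMDK the differences were 3.28 (WNT5B), 2.37 (WNT9B), 1.60 (WNT9A), 1.13 (WNT11), -0.52 (FZD4), -0.43 (FZD5) and 0.27 (FZD6). At 10 uM they were 2.92 (WNT5B), 2.27 (WNT9B), 2.13 (WNT11), 1.65 (WNT9A), -1.95 (WNT6), -0.94 (FZD5), -0.50 (FZD4), 0.34 (FZD6), 0.63 (FZD7), -0.13 (LRP5), -2.62 (ROR1) and 0.13 (RYK). WNT5B and ROR1 rest on few counts in HepG2, and WNT9B on few in Huh6. WNT9B passed the filter on low counts there only through iMDK-treated HepG2 libraries. WNT9B at both doses, FZD6 at 5 uM, and LRP5 and RYK at 10 uM lost their call in at least 1 other setting, RYK in 12 of 17.

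The single HepG2 library at 0.3 uM PKF118-310, which entered no comparison, lay above all 3 vehicle libraries for 7 of the genes at 1 CPM or more in it. It held 53.7 CPM of WNT7B, 8.56 of PORCN, 5.81 of WNT11, 4.22 of WNT9A, 2.69 of WNT2B, 1.26 of WNT4 and 1.10 of WNT10B. It also lay above them for 5 genes under 1 CPM (WNT3A, WNT5B, WNT7A, ROR2 and WLS) and below them for 12 (WNT3, WNT8A, WNT8B, FZD2, FZD4, FZD5, FZD6, FZD7, FZD8, FZD9, LRP5 and RYK).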

How the results depend on the processing

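Of 195 called values of the Wnt genes, 194 kept their call with RLE size factors, 185 with library totals, 183 without a filter and 190 with a replicate block, as did 184 of 194 with DESeq2 and 127 of 131 in fits on the compared groups alone. Leaving out single libraries kept 1218 of 1361. In the tumour lines, 3 counts moved by more than 1.5 times: at 0.2 uM PKF118-310 in Huh6, leaving out single libraries gave 215 to 242 genes and 2 to 3 Wnt genes (lowest without vehicle replicate 1 or 3 or 0.2 uM replicate 1 or 3), and at 10 against 5 uM iMDK in HepG2 1 to 3 Wnt genes (1 without 10 uM replicate 3).

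The THP-1 counts moved more. Against macrophages alone, HepG2 co-culture gave 3354 genes and 5 Wnt genes, 5118 and 8 with the replicate block, 8 Wnt genes without a filter, and 3 to 6 with single libraries left out. The Wnt genes added by the block were WNT10B (-0.91), WNT5B (-1.12) and WNT2B (0.58). Huh6 co-culture gave 283 genes and 1 Wnt gene, 689 and 2 without a filter, 927 genes with the block, 447 with DESeq2, 62 after subtraction of tumour reads, 0 Wnt genes in a fit on the compared groups, and 92 to 246 genes and 0 to 1 Wnt genes with libraries left out. HepG2 against Huh6 co-culture gave 2586 genes, 4505 with the block and 1569 to 2859 with libraries left out. For HepG2 given 5 uM iMDK, 14 genes became 320 without a filter, 614 with the block, 162 with DESeq2, 210 after subtraction, 52 in the compared groups and 0 to 46 with libraries left out. At 10 uM, 518 genes became 854, 1802 with the block, 293 in the compared groups (0 Wnt genes) and 206 to 636 (0 to 1 Wnt genes), with 2 Wnt genes after subtraction. For Huh6 given 5 uM, 2 genes became 1 with library totals, 111 without a filter, 21 with the block, 19 with DESeq2, 0 in the compared groups and 0 to 25. At 10 uM, 9 became 4, 167 (1 Wnt gene), 75, 54, 0 and 0 to 62 in the same order, and 2 after subtraction.

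Subtraction reversed WNT3 (-0.64), LRP5 (-0.74) and FZD5 (-4.37) for HepG2 co-culture against alone, WNT5B (2.31), LRP5 (-0.69) and FZD5 (-3.88) against Huh6 co-culture, and LRP5 (0.81) and FZD5 (3.02) at 10 uM iMDK. For WNT5B with untreated Huh6 the tumour reads predicted 2.90 CPM where 1.71 were measured. For FZD5 with untreated HepG2 they predicted 15.7 where 13.7 were measured. Subtraction there took out more than was measured, so the reversed values of WNT5B and FZD5 do not give a macrophage level. The predictions for LRP5 (39.7 of 60.5) and WNT3 (1.96 of 2.28) with untreated HepG2 stayed below the measured level. The cause was not tested. In the other comparisons the block was not taken as a pairing, although same-numbered THP-1 libraries also deviated together in part. Correlations were 0.081 to 0.226 for Huh6 co-culture against alone, where the same number matched best in 3 of 3. They were 0.019 to 0.253 for Huh6 given 10 uM iMDK, where it did so in 1 of 3. For Huh6 given 5 uM they were 0.07 to 0.323 (3 of 3), and for HepG2 given 10 uM 0.051 to 0.271 (2 of 3). HepG2 co-culture gave 0.01 to 0.313 against alone and 0.026 to 0.22 against Huh6 co-culture (2 of 3 each). At these depths, genes under about 3 counts per library were not measurable.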
